A study of Mus musculus with 18 samples.

Results

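Advanced pluripotent stem cells (ASCs) and epiblast stem cells (EpiSCs) are both mouse pluripotent cells, and the comparison described here is between the 3 ASC and the 3 EpiSC samples of a series of 18 samples, chosen by their labels alone and examined across all genes. The series profiled bulk polyadenylated RNA of 6 kinds of pluripotent cell, with 3 samples of each. It asked how the transcriptome of ASCs relates to that of other naive and primed cell types. All 6 samples carry the same labels for strain (129S2/SvPasCrl) and genotype (wild type). According to the study's methods, ASCs came from blastocyst-derived AFSCs, a line grown in activin A and bFGF, which carried the GOF-GFP reporter (GFP under an *Oct4* enhancer active in naive and germ cells). The AFSCs were moved to ABCL, a serum-free N2B27 medium with activin A, BMP4, the GSK3 inhibitor CHIR99021 and LIF, and GFP-positive colonies were picked and expanded. ASCs are therefore a line selected by that reporter, and the methods describe parents of mixed background with reporter transgenes. In its methylation data the study describes both the ASCs and the EpiSCs as female. For EpiSCs it also describes, in a panel of selected genes, lines from 129/sv mothers and GOF-GFP fathers of mixed background. Their culture medium is not given in the sources used here, so medium, line and cell type cannot be told apart in any of the differences below. The study describes its RNA samples as biological replicates, but the separate cultures behind them are not labelled. Unless another fit is named, the p-values of genes measure the spread between replicates pooled over all 18 samples. They do not measure the spread of the 6 compared samples alone.

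Naive pluripotent cells resemble the epiblast of the blastocyst, whereas EpiSCs resemble the epiblast after implantation, shortly before gastrulation. LIF acts through the receptor pair LIFR and GP130 on the transcription factor STAT3, BMP ligands act through SMAD1, SMAD5 and SMAD9 on *Id* genes, and inhibition of GSK3 stabilises β-catenin, the effector of canonical Wnt signalling. FGF acting through ERK and Nodal or activin acting through SMAD2 and SMAD3 sustain the primed state. These pathways also pattern the gastrulating embryo, where posterior cells switch on *Cdx* and *Hox* genes and the anterior streak forms endoderm and axial mesoderm.

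The 3 ASC samples held 7165615 to 8148294 counts in genes and the 3 EpiSC samples 6976376 to 9742624. Levels are given as normalized read counts, which are counts divided by a size factor for the sample and by the exonic length of the gene in kb. Log2 levels correlated between replicates at r = 0.961 to 0.978. ASC 1 stood apart from ASC 2 and ASC 3, with a chi-square per degree of freedom of 34.6 and 30.1 against 3.40 between the latter pair, whereas the 3 EpiSC pairs lay between 1.89 and 10.5. Naive markers summed to 7304 to 8813 in ASC and to 32.7 to 40.8 in EpiSC, and primed markers to 751 to 796 in ASC and 6474 to 6732 in EpiSC, so that both labels matched their markers. All 14 naive markers were called higher in ASC, and 13 of 14 primed markers were called lower. Of 7 core pluripotency genes 3 were higher and 1 was lower.

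The test covered the 16901 of 35773 genes that reached 10 counts in 3 or more of the 18 samples, using edgeR's quasi-likelihood test. A gene was called when its adjusted p was below 0.05 and its log2 fold change was beyond 1. By this rule 4321 genes (25.6% of those tested) were higher in ASC and 2839 (16.8%) were lower. The groups did not overlap for 4261 and 2809 of these genes. Genes that pass the rule mostly separate the groups, so these numbers add no further support. With the stricter thresholds of the study (log2 fold change past 2, and a log2 level over 3 on average in one group or the other), 1918 genes (11.3%) were higher and 874 (5.17%) were lower. EpiSC had no count in any sample for 602 of the genes called higher, whereas ASC had none for 36 of the genes called lower. The imbalance between directions was thus larger among genes without a count in one of the groups. A gene can pass the count filter through the 3 samples of either group alone, and multicopy genes share reads. The numbers of genes without a count are therefore a description. Because the RNA was bulk, fewer cells expressing a gene and less RNA in each cell cannot be told apart.

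The called genes were read through 33 gene lists. Of all tested genes, 25.6% were called higher and 16.8% lower. Lists and members were chosen with earlier results of these data known, so their shares of called members are a description. Up to 6 members of a list also passed the count filter through the ASC samples alone. The median log2 fold change of all tested genes was 0.07. Lists of germ cell, oocyte and cleavage-stage genes, *Hox* clusters, STAT3 and BMP targets, glycolysis and epithelial junctions held more genes higher in ASC than lower. Lists of retinoic acid, neural, primitive streak and MYC genes held more genes lower in ASC.

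**Figure D1:**
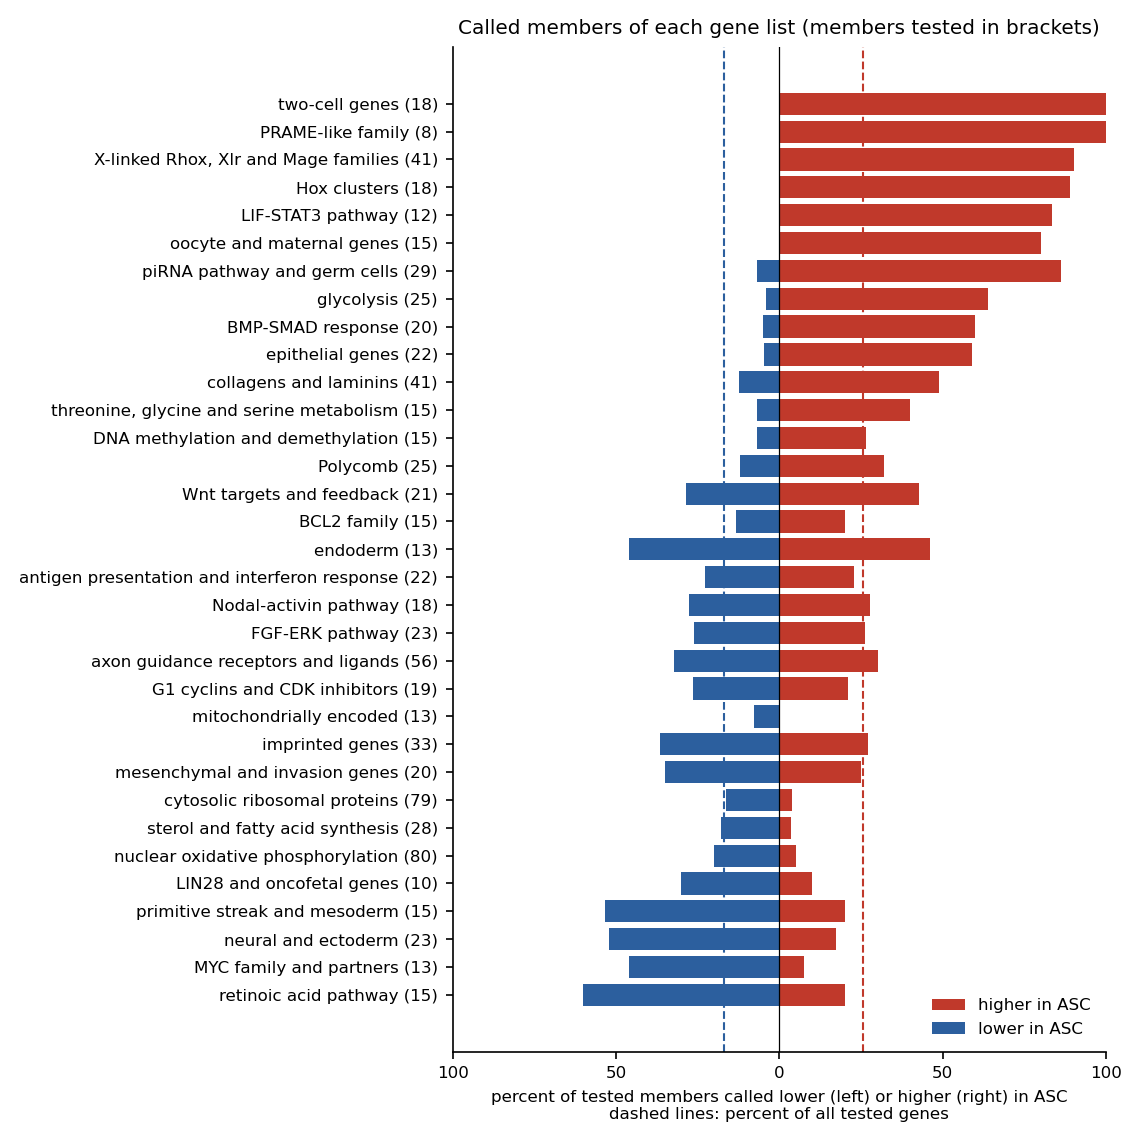
Horizontal bars give, for each of 33 gene lists, the percent of tested members called higher in ASC (red, to the right) or lower (blue, to the left), and dashed lines mark the percent of all tested genes (25.6% higher and 16.8% lower). The lists at the top, such as PRAME-like genes with 8 of 8 members higher, have almost no blue bar, whereas the retinoic acid list at the bottom has 9 of 15 members lower. The lists were chosen with earlier results of these data known.

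Among the genes with the largest changes outside the naive and meiotic genes named by the study, *Trim25* (chr11:88999376-89020293), a ubiquitin ligase of the antiviral response, had normalized read counts of 158, 149 and 168 in the 3 ASC samples and no count in any EpiSC sample. It was at least 892-fold higher in ASC, taking 3 counts over the group as the limit that a count of 0 allows. *Calcoco2* (chr11:96099326-96111964), an autophagy receptor, had 447, 621 and 596 in ASC and none in EpiSC, a difference of at least 884-fold. Both genes went from moderate expression to none, with no overlap. *Nr0b1*, an orphan nuclear receptor on the X chromosome, was at least 927-fold higher (423, 578 and 564 against 0, 0 and 0). *Aqp3*, a water and glycerol channel, was at least 671-fold higher (422, 365 and 334 against 0, 0 and 0). *Sohlh2*, a germ cell transcription factor, was at least 607-fold higher (218, 291 and 275 against 0, 0 and 0). ASC expressed each of these genes in every sample, and EpiSC had no count for any of them.

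Genes with the largest differences in the other direction included the following. *Actc1* (chr2:114047282-114053548), cardiac muscle actin, had 483, 501 and 507 normalized read counts in EpiSC and no count in ASC, so that it was at least 754-fold higher in EpiSC. *Lhx1* (chr11:84518284-84525535), a homeobox gene of the anterior streak and node, had 51.2, 52.2 and 52.3 in EpiSC and no count in ASC, a difference of at least 198-fold. The 3 EpiSC samples were close together for both genes. *Myod1*, the myogenic master regulator, had 269, 256 and 265 in EpiSC, against 2 counts over the 3 ASC samples. Its ratio was 685, with a 95% counting interval of 189 to 5658. *Fabp7*, a fatty acid binding protein of neural progenitors, had 315, 224 and 328 in EpiSC against 2 counts in ASC (ratio 498, interval 138 to 4119). A muscle regulator and a muscle actin were thus both present in EpiSC, where their mean levels exceeded those of the other 5 groups: the other groups' mean levels of *Actc1* were 0 to 7.20 and those of *Myod1* were at most 1.22 outside EpiSC.

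**Figure D2:**
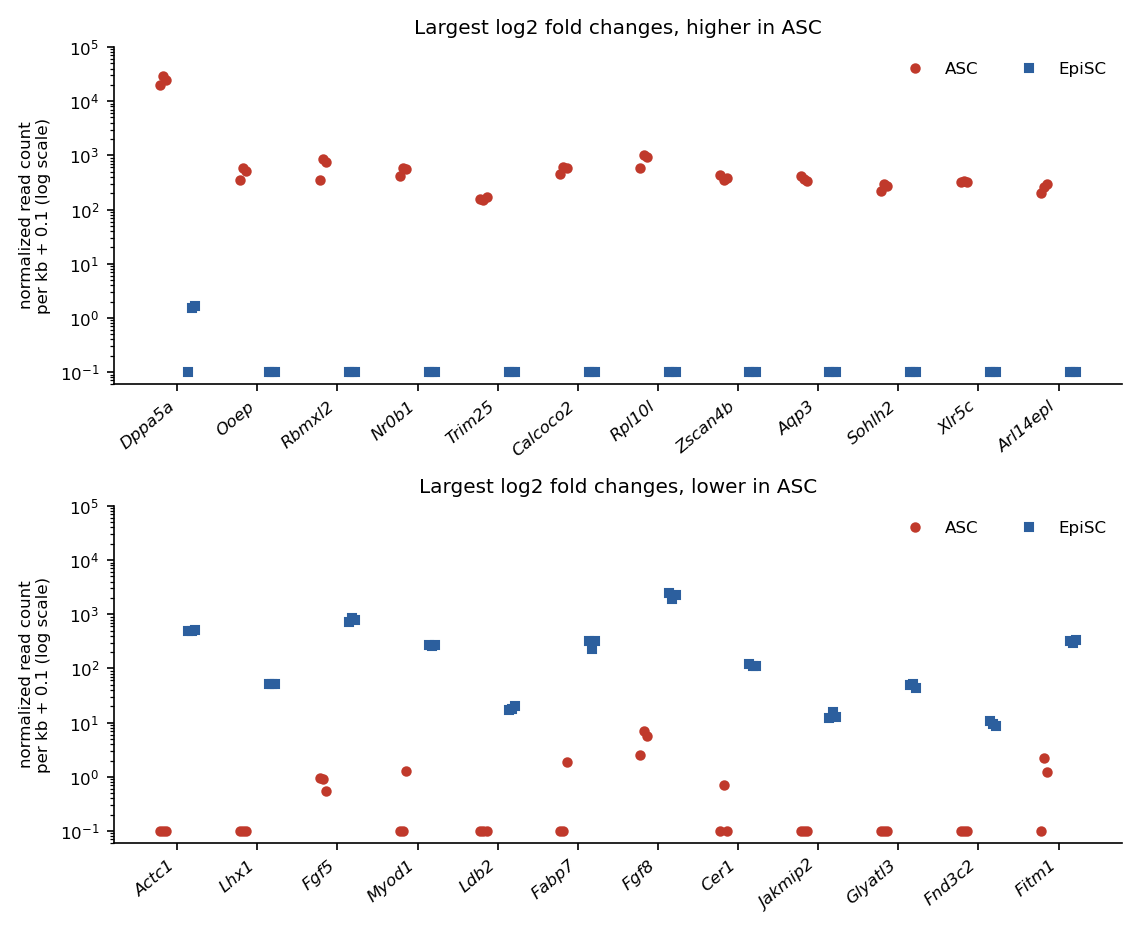
Points give the normalized read count per kb plus 0.1 of each sample on a log axis, for the 12 genes with the largest log2 fold change in each direction (ASC red circles, EpiSC blue squares). In the upper panel 11 of the 12 genes sit at the bottom of the axis, where the count is 0, in all 3 EpiSC samples.

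LIF signalling genes were higher in ASC. Of 12 tested members of the LIF-STAT3 list, 10 were higher and 0 lower, with a median log2 fold change of 2.45. *Stat3*, the pathway's transcription factor, had 73.1, 79.4 and 89.0 normalized read counts in ASC and 8.40, 11.2 and 8.92 in EpiSC (log2 fold change 3.06 ± 0.21 (SE), adjusted p = 2.73e-10). Both receptor chains were higher: *Lifr* had a mean of 31.3 ± 10.4 (SD, n = 3) against 5.27 ± 0.48, and *Il6st*, which encodes GP130, had 73.5 ± 23.6 against 19.4 ± 1.01. Immediate STAT3 targets followed. *Socs3*, a feedback inhibitor of JAK kinases, had 192, 272 and 273 in ASC against 28.1, 26.8 and 21.1 in EpiSC. *Pim1*, a survival kinase, had 562, 751 and 766 against 47.8, 53.1 and 48.9 (log2 fold change 3.78 ± 0.15). *Bcl3*, a cofactor of NF-κB, showed the largest difference of the list, with 122, 214 and 211 in ASC and 3 counts in all over the EpiSC samples (ratio 443, interval 151 to 2150). *Socs2* and *Junb* were not called.

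Of 20 tested members of the BMP list 12 were called higher and 1 lower (median log2 fold change 2.06). The *Id* genes encode dominant-negative helix-loop-helix factors. *Id1* rose from 111 ± 21.7 to 332 ± 95.5 (log2 fold change 1.57) and *Id3* from 126 ± 5.71 to 502 ± 136 (log2 fold change 1.98), while *Id2* had a log2 fold change of 0.76 and was not called. The inhibitory SMADs *Smad6* and *Smad7*, which BMP signalling induces, had log2 fold changes of 2.14 and 2.24. *Bmp4* itself had 64.5, 49.0 and 53.3 in ASC and 3.54, 2.38 and 3.86 in EpiSC (log2 fold change 4.08 ± 0.26). *Gata2* and *Gata3*, BMP-responsive zinc finger factors of trophoblast, blood and surface ectoderm, were nearly silent in EpiSC. *Gata2* had 33.0, 31.7 and 34.1 in ASC against 2 counts in EpiSC (ratio 262, interval 72.1 to 2167). *Gata3* had 11.1, 15.9 and 13.8 in ASC against 1 count (ratio 160, interval 28.2 to 6351, and log2 fold change 6.89, or 8.86 without EpiSC 2). The receptor *Bmpr1b* went the other way (0.54 ± 0.48 in ASC and 2.97 ± 0.10 in EpiSC), by a log2 fold change of -2.43 that was -3.387 without ASC 1.

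Trophoblast markers moved with these genes. Of 9 tested trophoblast markers, 8 were higher and 1 (*Krt7*) lower, and the summed level of all 14 was 225 to 337 in ASC and 25.0 to 36.8 in EpiSC. The list holds *Gata3*, *Cdx2*, *Hand1* and *Ascl2*, which are also BMP, Wnt or mesoderm genes. *Elf5*, which defines trophoblast stem cells, was at 0.12 in ASC, and the placental hormone genes *Prl3d1* and *Prl2c2* were at 0 there. The part of trophoblast cells in the BMP results was not tested.

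FGF ligands changed in opposite directions, and 6 of 23 tested FGF-ERK members were higher and 6 lower (median log2 fold change -0.45). Each share was 26.1%, against 25.6% of all tested genes higher and 16.8% lower. *Fgf4* (chr7:144847367-144865243), the FGF of the preimplantation epiblast, had 539, 469 and 439 normalized read counts in ASC and 12.3, 16.8 and 13.4 in EpiSC (log2 fold change 5.06 ± 0.15, adjusted p = 3.18e-15). *Fgf5* (chr5:98254184-98277030), the classical marker of the postimplantation epiblast, had 0.86, 0.83 and 0.44 in ASC and 708, 864 and 779 in EpiSC. *Fgf8* (chr19:45736798-45742915), a ligand of the streak, had 2.40, 6.92 and 5.69 in ASC and 2466, 1884 and 2284 in EpiSC. The ligand genes thus exchanged places, with *Fgf4* at 33.3-fold and *Fgf8* at 436-fold between the groups. *Fgf15* (log2 fold change -5.34) and *Fgf17* (-2.16) were lower in ASC as well. Feedback genes of the ERK pathway split in the same list. *Spry4* (132 ± 6.71 against 24.9 ± 1.98) and *Etv5* (940 ± 91.4 against 317 ± 47.6) were higher, whereas *Dusp6* (102 ± 12.9 against 259 ± 7.56) and *Etv1* (11.1 ± 3.66 against 88.5 ± 9.29) were lower. *Spry2*, *Egr1* and *Etv4* had log2 fold changes of -0.67, 0.61 and 0.83 and were not called. The receptor *Fgfr1* had a log2 fold change of -0.75.

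The Nodal-activin list likewise held 5 members higher and 5 lower of 18 tested, with a median of 0.19. Each share was 27.8%, and the higher one was near the 25.6% of all tested genes. The antagonists encoded by neighbouring genes parted: *Lefty2* had 1091, 763 and 673 in ASC and 33.2, 30.4 and 34.4 in EpiSC, whereas *Lefty1* had 273, 218 and 222 in ASC and 1079, 1078 and 1164 in EpiSC. Their log2 fold changes were 4.68 ± 0.23 and -2.23 ± 0.18. The coreceptors parted too. *Tdgf1* (Cripto) had 2745, 2087 and 1879 in ASC and 530, 499.8 and 481 in EpiSC, while *Cfc1* (Cryptic) had 1 count over the ASC samples and 27.5 to 49.2 normalized read counts in EpiSC. *Pcsk6*, a convertase that matures Nodal, was higher (log2 fold change 4.30 ± 0.24). *Fst* (chr13:114452262-114458730), which encodes the activin antagonist follistatin, had 21.7, 15.1 and 17.4 in ASC and 869, 746 and 824 in EpiSC, a 45.3-fold difference. *Nodal* itself (log2 fold change -0.58) and its mediators *Smad2*, *Smad3* and *Foxh1* were not called.

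Targets of Wnt signalling did not move as a block. Of 21 tested, 9 were higher and 6 lower, with a median log2 fold change of 0.26. Of the 21, 1 (*Wif1*) passed the count filter through the ASC samples alone, and among the 20 others 8 were higher. *Axin2*, *Lef1* and *Tcf7*, the targets most often used as readouts of β-catenin, had log2 fold changes of 0.10, 0.36 and -0.08, with overlapping groups. *Cdx1* had 245, 461 and 404 in ASC and 13.6 to 18 in EpiSC, and *Cdx2* had 41.0, 55.1 and 57.2 against 2.32, 3.12 and 5.49. Both are caudal-type homeobox genes that instruct posterior identity, and both rose in every ASC sample. The Wnt antagonist *Notum* was higher (144.5 ± 20.8 against 16.1 ± 1.18). *Wnt3* (11.9 ± 1.66 against 136 ± 15.8) and *Wnt8a* (16.6 ± 0.46 against 324 ± 9.07), ligands of the streak, were lower, and so was *Sp8* (1.76 ± 0.75 against 114 ± 7.21). *Dkk1* and *Nkd1*, feedback inhibitors, had log2 fold changes of -1.83 and -1.87.

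**Figure D3:**
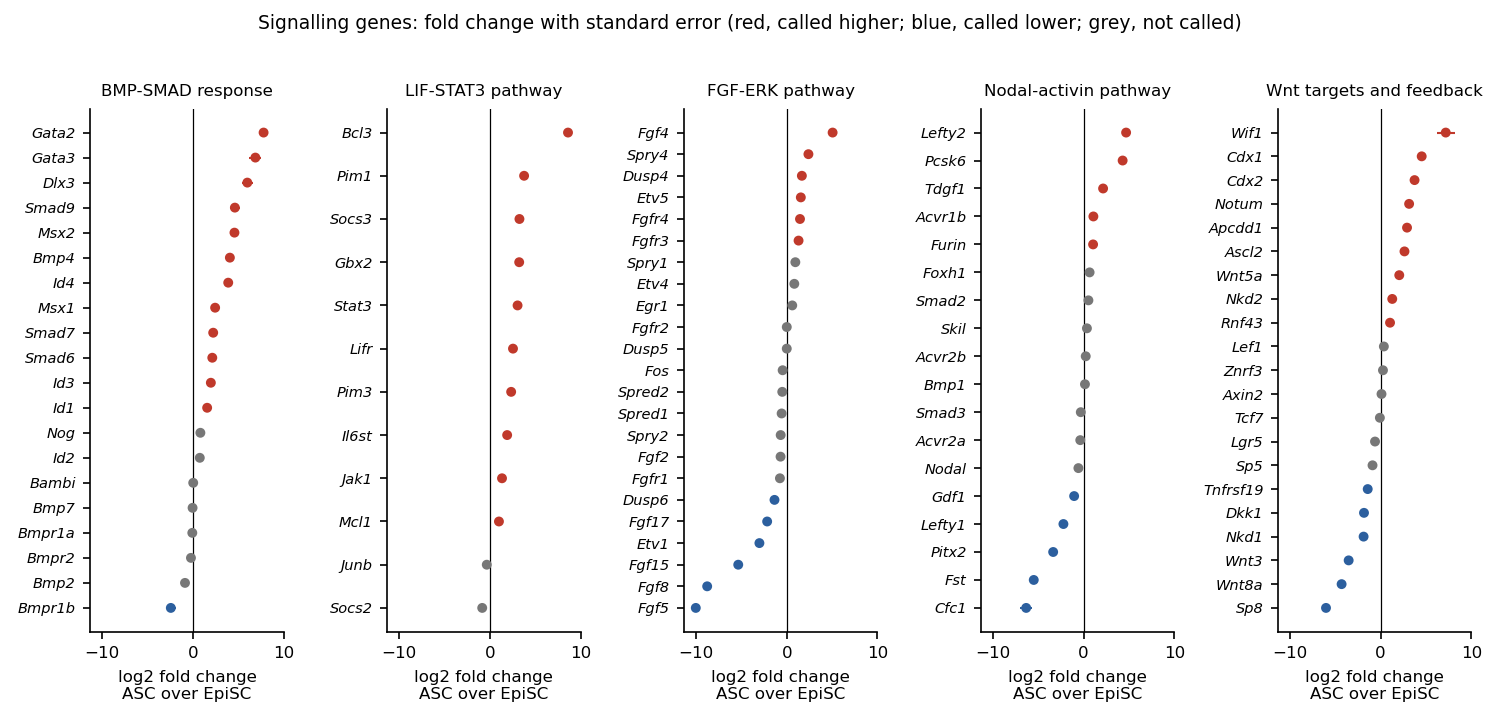
Points give the log2 fold change of ASC over EpiSC with its standard error for each tested member of the 5 signalling lists, coloured by call (red higher, blue lower, grey not called). BMP and LIF genes lie mostly to the right of 0, while FGF, Nodal and Wnt genes spread to both sides, from -10.02 for *Fgf5* to 7.18 for *Wif1*. *Wif1* had no count in EpiSC, which allows only a difference of at least 16.5-fold, and it passed the count filter through ASC alone.

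Genes of the primitive streak and mesoderm were mostly higher in EpiSC: of 15 tested, 8 were lower in ASC and 3 higher, with a median log2 fold change of -1.40. Of the 15, 1 passed the count filter through the ASC samples alone, where it is high, and among the 14 others 2 were called higher. *Gsc* (chr12:104471209-104473330), a homeobox gene of the organiser, had 14.5, 36.0 and 23.4 in ASC and 852, 710 and 974 in EpiSC (log2 fold change -5.10 ± 0.23). *Mixl1*, a homeobox gene of mesendoderm, had 0.94, 2.26 and 0.96 in ASC and 69.8, 62.6 and 56.6 in EpiSC. *T*, the brachyury gene, was at 26.9 ± 1.20 in ASC and 417 ± 14.3 in EpiSC. These 3 genes thus kept a low level in ASC. *Hand1*, a factor of extraembryonic and lateral mesoderm, was an exception, with 33.5, 35.4 and 47.8 in ASC against 2 counts in EpiSC (ratio 114, interval 31.2 to 948). It is the member that passed the filter through ASC alone, so its values are given as a description. *Mesp2* was also higher (6.98 ± 2.33 against 0.87 ± 0.54, log2 fold change 2.90, and 3.53 without EpiSC 3). The third exception, *Tal1*, rested on 5 counts in ASC, its groups overlapped, and the call was lost in 5 of the 6 fits that left out a sample.

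Endoderm genes divided evenly, with 6 of 13 higher, 6 lower and a median of -0.32. Definitive endoderm and organiser genes were lower in ASC: *Sox17* had a mean of 2.76 ± 0.28 against 34.6 ± 2.76, *Cxcr4* 4.15 ± 0.58 against 43.6 ± 3.65, and *Cer1*, which encodes an antagonist of Nodal and BMP, had 1 count in ASC against 110 to 119 normalized read counts in EpiSC. *Hnf4a*, a nuclear receptor of visceral endoderm and liver, had 11.2, 7.96 and 11.4 in ASC and no count in EpiSC, a difference of at least 48.0-fold. *Krt19*, a simple keratin, had 133, 171 and 150 in ASC and 2.12, 0.95 and 3.09 in EpiSC. *Gata4* was higher (8.14 ± 0.63 against 1.53 ± 1.04) and *Gata6* lower (5.66 ± 3.04 against 26.5 ± 3.09). *Foxa3* was called higher on 13 counts against 1, and not without ASC 2. The summed level of primitive and visceral endoderm markers was 2780 to 3369 in ASC and 286 to 294 in EpiSC, with 5 of 9 tested markers higher and 1 lower, and most of that sum in ASC was *Rhox5* (2412 ± 336). *Afp* and *Apoa1* were at 0.11 and 0.29 in ASC, and *Ttr* was at 0. The part of such cells in these results was not tested.

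Neural and ectoderm genes were mostly higher in EpiSC (12 of 23 lower in ASC, 4 higher, median -1.41). *Pax2* had a mean of 1.32 ± 0.11 in ASC and 25.3 ± 5.27 in EpiSC. The Iroquois genes *Irx3* (5.03 ± 0.97 against 72.2 ± 2.94) and *Irx5* (1.60 ± 0.24 against 30.0 ± 3.79) differed in the same direction, while *Irx2* was higher in ASC (15.5 ± 0.63 against 5.80 ± 2.26). *Sox3*, a SOXB1 gene on the X chromosome, had 77.6 ± 23.1 in ASC and 1049 ± 65.0 in EpiSC. *Sox1*, which marks neural plate, was low in both groups (4.36 ± 0.29 against 1.20 ± 1.06), and *Pax6* was below 1 in both groups (log2 fold change -0.69, and -2.71 without ASC 1). Among 8 tested markers of neurons and their precursors 2 were higher and 3 lower, and the summed level of the 10 markers listed was 239 to 353 in ASC and 398 to 474 in EpiSC. The part of neural cells in the EpiSC values was not tested.

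Retinoic acid, made from retinol, is a posteriorising and differentiation signal. Its list had 9 of 15 members lower and 3 higher, with a median log2 fold change of -1.14. *Cyp26a1* (chr19:37697808-37701528), whose product degrades retinoic acid, had 1.22, 1.17 and 3.09 in ASC and 118, 102 and 119.5 in EpiSC. *Dhrs3*, a retinaldehyde reductase, had 4.06, 3.19 and 2.25 against 119, 99.7 and 116. The nuclear receptor *Rxrg* had 0.47, 0.45 and 0.96 against 82.3, 70.2 and 74.4. All 3 were therefore at very low levels in every ASC sample. In the opposite direction went *Aldh1a2*, which makes retinoic acid (17.0 ± 1.61 against 2.07 ± 0.41), the binding protein *Crabp1* (189 ± 34.2 against 22.0 ± 6.95) and the receptor *Rarg* (131 ± 26.5 against 50.9 ± 4.41).

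*Hox* genes, which encode positional identity along the body axis, were almost silent in EpiSC. The files hold 39 of them, and 18 passed the count filter. Of these, 6 passed through the ASC samples alone, where they are high, so the 16 that were called higher are given as a description. Among the 12 others 10 were called higher. None was called lower. The median log2 fold change was 7.02, or 4.45 with genes without a count in EpiSC at the limit that 0 allows. Genes of the posterior groups were among the highest: *Hoxb13* (chr11:96194316-96197447) had 22.0, 31.1 and 20.9 in ASC and no count in EpiSC, at least 53.6-fold higher. *Hoxc10* had 17.0, 18.5 and 17.2 (at least 32.9-fold) and *Hoxc13* 34.1 ± 5.22 against 0.72 ± 0.34. By contrast *Hoxd1*, an anterior gene, had 4.84 ± 2.75 in ASC and 2.51 ± 1.78 in EpiSC and was not called. Levels of the called genes in ASC stayed low, at most 34.1.

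Of 22 epithelial junction and polarity genes 13 were higher in ASC and 1 was lower (median log2 fold change 1.40). *Cldn4* (chr5:134945119-134946934), a tight junction claudin, had 501, 441 and 350.3 in ASC and 2.17, 2.43 and 2.63 in EpiSC, a 171-fold difference (log2 fold change 7.42 ± 0.27, adjusted p = 5.59e-14). *Ap1m2*, a subunit of the epithelial clathrin adaptor, had 101, 117 and 110 in ASC against 3 counts in EpiSC (ratio 186, interval 63.3 to 905). *Cdh1*, which encodes E-cadherin, had 955, 584 and 543 in ASC and 170, 178 and 174 in EpiSC. *Ocln* (occludin), *Cldn7*, *Cldn3* and the transcription factor *Grhl2* had log2 fold changes of 3.70, 2.43, 2.03 and 1.91. *Epcam*, *Cldn6* and *Tjp1* had overlapping groups. The splicing regulator *Esrp1*, an epithelial gene, went the other way (14.2, 13.0 and 14.8 against 31.2, 38.9 and 34.4).

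In the mesenchymal list 7 of 20 members were lower and 5 higher (median -0.41). *Cdh11*, a mesenchymal cadherin, had 0.24, 0.35 and 0.49 in ASC and 57.2, 50.2 and 49.5 in EpiSC. The repressor *Zeb2* had 0.41 ± 0.26 against 8.91 ± 0.45 (log2 fold change -4.42, and -5.04 without ASC 1), the E-cadherin repressor *Snai1* 35.7 ± 6.04 against 122 ± 4.44, N-cadherin (*Cdh2*) 12.2 ± 4.19 against 49.4 ± 1.90, and vimentin (*Vim*) 250 ± 54.4 against 833 ± 61.8. Cadherins thus differed in both directions between the groups, E-cadherin being higher in ASC and N-cadherin and cadherin 11 higher in EpiSC. Fibronectin (*Fn1*), also in this list, had 1463, 854 and 868 in ASC and 19.99, 22.4 and 20.9 in EpiSC (log2 fold change 5.64 ± 0.32). The integrin chains *Itgav* and *Itga5*, which bind fibronectin, had log2 fold changes of 2.01 and 1.27.

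Of 41 tested collagen and laminin genes 20 were higher in ASC, 5 were lower and 16 were not called, with a median log2 fold change of 1.16. Apart from 1 gene that passed the count filter through the ASC samples alone, 19 of 40 were higher. *Lama1* (chr17:67697265-67822645), the laminin α1 chain of the embryonic basement membrane, had 152, 90.8 and 82.9 in ASC and 0.83, 1.94 and 1.30 in EpiSC, a 75.6-fold difference. Its partner *Lamc1* was higher (513 ± 169 against 68.6 ± 10.6), while *Lamb1* was lower (54.5 ± 19.5 against 131 ± 4.998). ASC 1 had the highest level of *Lama1*, *Fn1* and *Lamb1* among the ASC samples. *Lama3* (19.8 ± 2.74 against 0.43 ± 0.17) and *Col1a1* (56.4 ± 16.6 against 1.59 ± 0.84) were higher, and *Col2a1* (15.6 ± 1.89 against 61.9 ± 4.41) was lower. Fibroblast and feeder markers summed to 117 to 164 in ASC and 40.5 to 46.9 in EpiSC, with 4 of 10 tested markers higher, namely *Col1a1*, *Col1a2*, *Col5a2* and *Thy1* (the call of *Col1a2* was lost without ASC 1, EpiSC 1 or EpiSC 3). *Dcn*, *Lum* and *Postn* were at 0.17, 0.17 and 0.25 in ASC and *Fap* was at 0. The part of fibroblasts in these results was not tested.

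Axon guidance receptors and ligands, which also steer cell sorting in the early embryo, split without a common direction (17 of 56 higher, 18 lower, median -0.03). The shares were 30.4% and 32.1%, against 25.6% of all tested genes higher and 16.8% lower. Apart from 1 gene that passed the count filter through the ASC samples alone, 16 of 55 were higher. The split ran within families. *Sema6a*, a transmembrane semaphorin, had 4.15 ± 0.52 in ASC and 185 ± 3.39 in EpiSC, and *Efnb2*, the ephrin-B2 ligand, 9.55 ± 1.65 against 146 ± 7.27. *Nrp2*, a semaphorin coreceptor, had 58.5, 36.3 and 39.6 in ASC against 2.55, 2.61 and 2.74 in EpiSC. *Sema4f* (log2 fold change 4.44), *Sema4a* (3.83), *Sema4b* (2.23) and *Sema4d* (2.03) were higher, while *Sema4c* was lower (-1.80) and *Sema6c* (-2.38) and *Sema6d* went with *Sema6a*. The Eph receptors *Epha1* (37.5 ± 6.78 against 256 ± 4.19) and *Epha7* (5.18 ± 2.25 against 29.6 ± 2.88) were lower, whereas *Epha4* had 147, 71.2 and 66.3 in ASC against 22.0, 27.6 and 23.7 in EpiSC.

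Glycolysis was the metabolic list with the most genes higher in ASC: of 25 tested enzymes, transporters and regulators 16 were higher and 1 lower, with a median log2 fold change of 1.48. Glucose uptake genes were higher. *Slc2a1*, which encodes the transporter GLUT1, had 2904, 2363 and 2118 in ASC and 322, 299.6 and 332 in EpiSC, and *Slc2a3*, which encodes GLUT3, had 5894, 3432 and 3071 against 604, 657 and 591. The hexokinases *Hk1* (78.1 ± 9.70 against 9.06 ± 0.44) and *Hk2* (623 ± 67.0 against 129.7 ± 6.11), which trap glucose, followed. *Pfkp* (chr13:6579768-6648777), the platelet isoform of phosphofructokinase, had 726, 700.3 and 692 in ASC and 27.8, 24.1 and 30.2 in EpiSC (log2 fold change 4.68 ± 0.17, adjusted p = 5.92e-14). The liver isoform *Pfkl* was higher by 1.24 on the log2 scale, and the muscle isoform *Pfkm* was not called (166 ± 28.3 against 127 ± 16.2). *Pdk1*, a kinase that keeps pyruvate out of the mitochondrial cycle, had 161, 186 and 181 against 9.28, 10.8 and 12.5. *Pgk1* (log2 fold change 2.42), *Aldoc* (3.12), *Tpi1* (1.53) and *Gpi1* (1.48) were higher. The most abundant enzymes *Gapdh*, *Pkm*, *Ldha*, *Eno1* and *Pgam1* had overlapping groups. The enolases parted, with *Eno2* higher (14.9 ± 2.31 against 2.34 ± 0.41) and the muscle isoform *Eno3* lower (26.6 ± 2.82 against 256 ± 5.40).

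**Figure D4:**
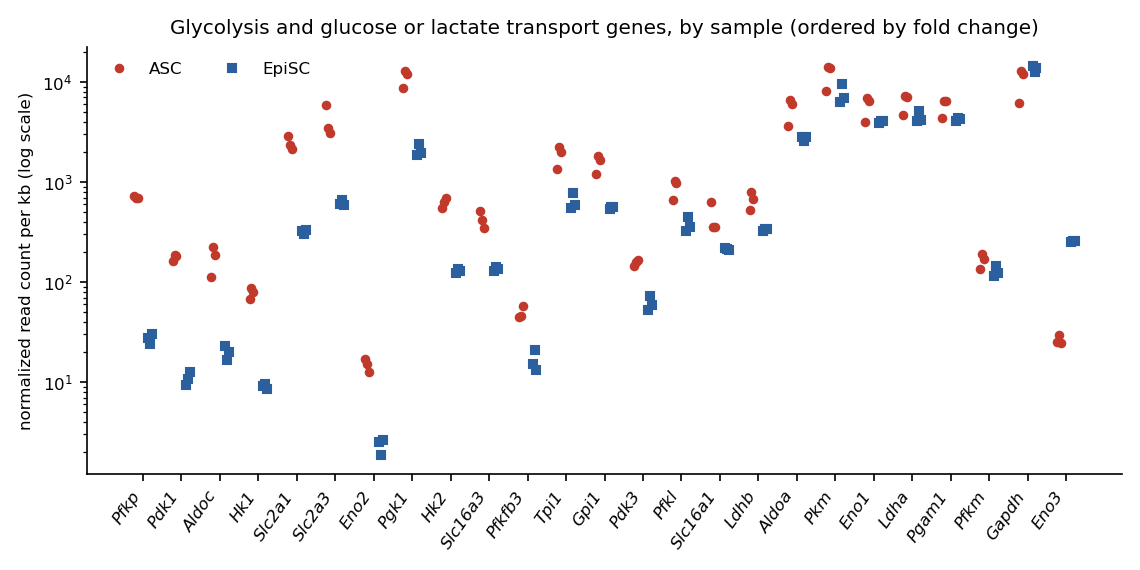
Points give the normalized read count per kb of each sample on a log axis for the 25 tested genes of glycolysis and of glucose or lactate transport, ordered by fold change (ASC red circles, EpiSC blue squares). The samples of the groups are far apart for *Pfkp* at the left and overlap for *Gapdh*, and only *Eno3* lies lower in ASC among the genes called.

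Nuclear genes of oxidative phosphorylation had 16 of 80 members lower and 4 higher (median -0.36). The lower genes included the complex I subunits *Ndufa5* (169 ± 44.1 against 552 ± 102) and *Ndufa2* (613 ± 162 against 1535 ± 202), but without ASC 1 only 5 were lower. The higher genes were *Cox5a* and 3 tissue-specific subunits of complex IV, *Cox7a1* (log2 fold change 1.35, and 0.891 without ASC 2), *Cox4i2* and *Cox7b2*. *Cox7b2* had 25.9, 69.0 and 48.6 in ASC and no count in EpiSC. Of the 13 mitochondrially encoded protein genes, 1 was called lower (*mt-Cytb*, adjusted p = 0.0246) and 0 higher, with a median of -1.17. A fit of the 6 samples alone gave 8, and blocking on the replicate number gave 9. The share of all counts in mitochondrially encoded genes was 3.48%, 1.61% and 1.43% in ASC and 4.59%, 3.11% and 4.08% in EpiSC.

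Threonine, glycine and serine metabolism had 6 of 15 members higher and 1 lower (median 0.63). Mouse pluripotent cells catabolise threonine through the enzyme encoded by *Tdh* (chr14:63492347-63509092), which had 1155, 1448 and 1480 in ASC and 18.1, 23.3 and 25.6 in EpiSC, a 59.9-fold difference. The glycine cleavage genes *Amt* (269 ± 30.3 against 19.6 ± 1.91) and *Gldc* (522 ± 23.8 against 88.8 ± 6.71) were higher, while *Gcsh* and *Dld*, the other components of that system, were not called. *Mthfd1*, on chromosome 12, was at the fold threshold (659 ± 90.7 against 1312 ± 78.9, log2 fold change -1.01), and its call was lost in 7 alternative fits, where the log2 fold change was -0.996 to -0.894. Sterol and fatty acid synthesis had 5 of 28 members lower and 1 higher (median -0.23). The lower share of 17.9% was near the 16.8% of all tested genes. *Hmgcs1*, an early enzyme of the mevalonate pathway, had 375, 325 and 358 in ASC and 1533, 1573 and 1469 in EpiSC. *Idi1*, further down that pathway, had 265, 252 and 274 against 749, 856 and 738.

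Among 15 genes of DNA methylation and demethylation 4 were higher (26.7%, against 25.6% of all tested genes) and 1 lower (median 0.24). *Dnmt3l* (chr10:78041947-78063622), the cofactor of the de novo methyltransferases, had 603, 963 and 901 in ASC against 2 counts in EpiSC (ratio 3623, interval 1003 to 29920). *Dnmt3b*, a de novo methyltransferase, had 136, 147 and 168 in ASC and 1131, 1277 and 1155 in EpiSC, while *Dnmt3a* and *Dnmt1* were not called. The cofactor and the enzyme thus went in opposite directions. The dioxygenases *Tet1* (312, 151 and 145 against 30.2, 31.7 and 30.4) and *Tet2* (104, 59.1 and 69.9 against 2.57, 2.66 and 1.87) were higher, with ASC 1 the highest in both, while *Tet3* was not called. *Zfp57*, which guards imprints, was higher by 1.97 on the log2 scale.

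Polycomb complexes repress developmental genes, and 8 of 25 members were higher and 3 lower (median 0.24, and 0.51 at most when 1 replicate was left out). The core subunit *Suz12* of PRC2 had 883, 606 and 620 in ASC and 233, 210.3 and 229.9 in EpiSC. *Ezh1* (39.7 ± 0.48 against 7.92 ± 0.90) was higher, and its paralog *Ezh2* was not called (187 ± 6.11 against 211 ± 9.62). In PRC1, *Pcgf5* was higher (104 ± 4.79 against 21.5 ± 5.32). *Ring1* (17.8 ± 4.26 against 112 ± 10.2), *Phc2* (47.7 ± 5.38 against 221 ± 5.19) and *Yaf2* (57.3 ± 6.88 against 261 ± 17.7) were lower, while their paralogs *Rnf2* and *Rybp* were not called.

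Germ cell genes beyond the meiotic ones named by the study formed the list with the second highest number of members higher in ASC after the X-linked families, 25 of 29, with 2 lower and a median of 7.36 (5.35 with silent genes at their limit). Many act in the piRNA pathway, which silences transposons in germ cells. *Piwil2*, a PIWI protein, had 38.7, 37.8 and 48.2 in ASC and no count in EpiSC (at least 200-fold). *Stk31*, a tudor domain kinase, had 56.7, 65.8 and 70.1 (at least 204-fold) and *Fkbp6*, a cochaperone of the pathway, 78.8, 142 and 100.1 (at least 185-fold), each against no count. *Ddx4*, the vasa helicase, had a mean of 25.6 ± 4.23 and *Taf7l*, an X-linked germ cell subunit of the transcription machinery, 35.1 ± 0.78, again against no count. *Dazl*, an RNA-binding regulator of germ cells, had 250.2 ± 23.1 against 1 count (ratio 2165, interval 388 to 85550). In the other direction, the tudor gene *Tdrkh* (2.37 ± 1.16 against 32.0 ± 2.84) and the helicase *Ddx25* (4.44 ± 0.74 against 20.1 ± 1.38) were higher in EpiSC.

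Promoters of these genes can be read beside the values. The hexamer CACGTG, an E-box that is the same on both strands, occurred in 7.15% of 32851 RefSeq promoters of 300 bases and in 10.1% of the 11847 tested genes with a promoter. It occurred in 11 of the 26 germ cell genes with a promoter (42.3%) and in 10 of the 22 that were higher in ASC. Other lists also exceeded the share of all tested genes, such as the MYC family with 4 of 11 (36.4%) and Polycomb with 5 of 20 (25.0%). In the MYC list 6 of 13 tested members were lower in ASC and 1 was higher. Of 5 members with no count in EpiSC and this motif, 3 are printed to show the stretch around the start of genes that moved together, from 250 bases before to 50 bases after the start, in lower case with the hexamer in capitals (RefSeq, GRCm38.p6, chr6:49395289-49395588 plus strand for *Stk31*, chrX:134476441-134476740 minus strand for *Taf7l* and chr13:112652261-112652560 minus strand for *Ddx4*). The match is a description of these letters.
Stk31: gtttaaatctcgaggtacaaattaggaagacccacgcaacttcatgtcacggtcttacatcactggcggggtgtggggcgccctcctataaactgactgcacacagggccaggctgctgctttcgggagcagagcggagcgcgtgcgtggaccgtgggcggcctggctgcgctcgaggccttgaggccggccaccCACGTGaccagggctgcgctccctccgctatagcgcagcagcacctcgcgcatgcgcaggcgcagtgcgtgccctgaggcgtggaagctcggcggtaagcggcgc
Taf7l: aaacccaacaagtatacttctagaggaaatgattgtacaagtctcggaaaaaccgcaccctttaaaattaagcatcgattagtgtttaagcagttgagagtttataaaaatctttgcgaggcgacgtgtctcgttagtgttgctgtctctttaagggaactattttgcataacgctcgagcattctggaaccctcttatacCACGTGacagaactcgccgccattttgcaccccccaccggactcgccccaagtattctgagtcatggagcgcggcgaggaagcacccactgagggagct
Ddx4: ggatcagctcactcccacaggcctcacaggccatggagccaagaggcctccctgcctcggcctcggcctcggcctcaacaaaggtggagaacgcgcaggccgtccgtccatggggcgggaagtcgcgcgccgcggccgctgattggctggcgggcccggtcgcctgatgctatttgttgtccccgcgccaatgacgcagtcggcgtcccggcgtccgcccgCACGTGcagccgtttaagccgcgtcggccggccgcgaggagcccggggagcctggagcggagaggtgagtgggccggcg
The motif began 55, 49 and 29 bases before the start in *Stk31*, *Taf7l* and *Ddx4*, and the 3 stretches held 29, 17 and 38 CG dinucleotides.

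Oocyte and maternal genes had 12 of 15 tested members higher and 0 lower (median 5.96, or 4.25 with silent genes at their limit). *Dppa5a*, an RNA-binding KH-domain protein of oocytes and naive cells, was the most abundant, at 20170, 28970 and 24550 in ASC against 2 counts in EpiSC (ratio 22440, interval 6210 to 185300). *Ooep* (chr9:78376109-78378725), part of the subcortical maternal complex, had 344, 584 and 524 in ASC and no count in EpiSC, at least 1018-fold higher. *Tle6* (49.0 ± 3.11 against 2.51 ± 0.78) and *Khdc3* (96.7 ± 15.2 against 2 counts), which belong to the same complex, were higher too. *Npm2*, a histone chaperone of the egg, was not called (4.29 ± 1.85 against 11.4 ± 1.497), but was called lower in the fit of the 6 samples alone (log2 fold change -1.34, adjusted p = 0.0164), and *Khdc1a* and *Khdc1c* were at 0 in both groups.

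Of 22 genes of the cleavage stage in the files, 18 passed the count filter and 18 were called higher. Of these, 4 passed through the ASC samples alone, where they are high, so the count is a description. Their median log2 fold change was 9.997 (7.48 with silent genes at their limit). *Zscan4f*, a zinc finger gene of a multicopy cluster, had 1193, 905 and 897 in ASC against 1 count in EpiSC. Beyond the *Zscan4* cluster, *Tmem92* (49.4 ± 10.8), *Tcstv1* (55.8 ± 10.4), *Zfp352* (15.1 ± 0.59) and the deubiquitinase gene *Usp17lc* (53.4 ± 6.09) had no count in EpiSC. All 8 tested PRAME-like genes, of 13 in the files, were called higher (median 9.21, or 6.08 at the limit), among them *Pramef12* (103, 137 and 146 against no count), whereas *Pramef8* was also expressed in EpiSC (77.1 ± 4.65 against 29.9 ± 3.76). Of 64 genes of the X-linked *Rhox*, *Xlr* and *Mage* families 41 passed the filter, 6 of them through ASC alone, and 37 were called higher and 0 lower (median 9.44, or 6.53 at the limit), again as a description. *Xlr5c* had 327, 338 and 327 against no count, and *Rhox5*, the founding gene of its cluster, 2412 ± 336 against 12.3 ± 4.44. The exceptions were ubiquitously expressed *Mage* genes: *Maged1* (618 ± 27.6 against 518 ± 4.57), *Maged2*, *Magee2* and *Mageh1*. Multicopy genes of these 3 groups share reads, since the counting added a fragment to every gene it matched, so the number of separate genes involved is uncertain.

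Imprinted genes moved both ways, with 9 of 33 higher and 12 lower (median -0.16). The higher share of 27.3% was near the 25.6% of all tested genes, and the lower share was 36.4%, against 16.8%. The growth factor *Igf2* had 551, 498 and 617 in ASC and 38.8, 43.3 and 36.2 in EpiSC, and its neighbour *H19* had 30.0, 53.4 and 49.5 against 4.98, 0 and 0 (log2 fold change 5.01 ± 0.70, 9.84 without EpiSC 1). The pair thus rose together. *Igf2r* (322 ± 132 against 36.8 ± 4.28), which clears IGF2, and *Plagl1* (106 ± 19.2 against 10.7 ± 0.21), a zinc finger gene, were higher. *Mest* (26.8 ± 4.05 against 297 ± 4.97), *Gnas* (165 ± 47.5 against 1403 ± 136), *Magel2* (3.49 ± 0.88 against 43.3 ± 4.39) and *Peg3* (36.9 ± 8.62 against 100.3 ± 0.95) were lower. The RNAs of the *Dlk1*-*Meg3* cluster on chromosome 12 were all lower in ASC. *Meg3* had 108, 77.7 and 65.9 in ASC and 367, 282 and 354 in EpiSC, and *Rian*, *Mirg* and *Dlk1* had log2 fold changes of -2.26, -2.54 and -1.96.

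Antigen presentation and interferon genes had 5 of 22 members higher and 5 lower (median 0.12). Each share was 22.7%, against 25.6% of all tested genes higher and 16.8% lower. *Oas1a*, an antiviral RNA sensor, had 167, 183 and 180 in ASC and 0.70, 0.47 and 3.04 in EpiSC (log2 fold change 6.87, and 8.13 without EpiSC 3), and the membrane proteins *Ifitm1* and *Ifitm3* had log2 fold changes of 2.91 and 4.55. The immunoproteasome subunits *Psmb8* (3.51 ± 0.57 against 26.2 ± 5.46) and *Psmb10* (39.9 ± 11.2 against 283 ± 22.8) and *B2m*, the light chain of class I molecules (136 ± 29.3 against 316 ± 50.2), were lower. *Isg15* and *Irf7* were not called. *Pecam1*, an adhesion molecule of endothelium that mouse naive cells also carry, had a mean of 145 in ASC and 0.48 in EpiSC, and the other endothelial markers *Cdh5* and *Tie1* were below 0.3 in both. The summed level of the 10 blood and endothelial markers was 133 to 214 in ASC and 2.83 to 10.6 in EpiSC, with 3 of 3 tested markers higher. The part of such cells in these results was not tested.

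Cell cycle genes of G1 split, with 4 of 19 higher, 5 lower and a median of 0.00. The shares were 21.1% and 26.3%, against 25.6% of all tested genes higher and 16.8% lower. The inhibitor locus *Cdkn2a* (chr4:89274471-89294653), which encodes p16 and p19, had 129, 241 and 202 in ASC and 1.12, 3.01 and 3.26 in EpiSC, a 70.1-fold difference. Its neighbour *Cdkn2b* was higher as well (16.6 ± 5.68 against 1.42 ± 0.57). *Ccnd2* (13.1 ± 1.66 against 58.6 ± 6.99), *Cdk4* (954 ± 167 against 2161 ± 195), *Cdk6* and *Rb1* were lower, while *Ccnd1* and *Ccne1* had overlapping groups. Of 13 genes of the MYC family and its partners 6 were lower and 1 higher (median -0.96). *Mycl* had 67.9, 72.5 and 75.8 in ASC and 333, 433 and 358 in EpiSC, *Myc* 53.9 ± 14.4 against 120 ± 14.5 (log2 fold change -1.16, and -0.954 without ASC 1), and *Npm1*, a nucleolar target, 8073 ± 911 against 18080 ± 3115, while the antagonist *Mxi1* was higher (73.3 ± 8.47 against 15.4 ± 0.81). *Mycn*, on chromosome 12, missed the fold threshold (log2 fold change -0.96).

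Of 15 genes of the BCL2 family 3 were higher and 2 lower (median 0.14). The proapoptotic genes *Bmf* (28.9 ± 5.33 against 5.45 ± 0.57) and *Hrk* (5.84 ± 1.69 against 0.69 ± 0.20) were higher, as was the survival gene *Mcl1* at the fold threshold (log2 fold change 1.01, and 0.976 to 0.98 without ASC 2, ASC 3 or EpiSC 1), and *Bcl2* (0.67 ± 0.36 against 3.44 ± 0.39) and *Pmaip1* were lower. The LIN28 and oncofetal list had 1 of 10 higher and 3 lower (median -0.02). *Lin28a*, which blocks maturation of let-7, had 311, 332 and 399 in ASC and 843, 881 and 849.7 in EpiSC, and *Lin28b* had 34.2, 15.0 and 11.2 against 83.8, 80.3 and 79.0 (log2 fold change -2.02, and -2.64 without ASC 1). *Igf2bp2* was higher (237 ± 8.47 against 57.4 ± 3.71). Cytosolic ribosomal protein genes had 13 of 79 lower (16.5%, against 16.8% of all tested genes) and 3 higher (median -0.51). Without ASC 1 these genes had 2 lower, and without ASC 2 they had 23. Their share of the counts was 5.43% in ASC 1, 9.35% and 8.20% in ASC 2 and ASC 3, and 8.98% to 10.1% in EpiSC. The 3 that were higher were the paralogs *Rpl10l*, *Rpl39l* and *Rpl3l*, which are known from testis or muscle. *Rpl10l* had 596, 1002 and 921 in ASC and no count in EpiSC.

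Genes were also followed by chromosome. In each sample the median log2 level of tested X-linked genes less that of autosomal genes was 0.57, 0.49 and 0.49 in ASC and -0.85, -0.91 and -0.89 in EpiSC. The difference of 1.40 had an exact permutation p of 0.10 (two-sided), the smallest that 3 against 3 samples can give. Naive ESC samples had -0.66, -0.86 and -0.80, and ESC-ASC samples, which are ESCs moved to ABCL, had -0.775, -0.81 and -0.79. AFSC samples had -0.69, -0.85 and -0.795, and EpiLC samples -0.43, -0.53 and -0.48. The high X-linked level was thus seen in ASC alone among the 6 groups. Of 641 tested X-linked genes 299 (46.7%, against 25.6% of all tested genes) were higher in ASC, with a median log2 fold change of 0.85. For the 270 with a mean log2 level above 5 the median was 0.50. Among the *Rhox*, *Xlr* and *Mage* genes, 6 passed the count filter through ASC alone, where they are high. The number over all X-linked genes was not counted. Such genes enter the level of tested X-linked genes, its p and the share called, so these are given as a description. *Xist*, the RNA of the inactive X, had 33.8, 16.0 and 17.6 in ASC and 144, 138 and 133 in EpiSC (log2 fold change -2.63), and of 6 genes that mark the sex chromosomes 2 were lower, the other being *Eif2s3y* with 0.65 in EpiSC.

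Chromosome 12 was singled out after its values were seen. For 8662 genes with a mean log2 level above 5, each gene's deviation from the mean of the 6 groups was taken per sample and its median over a chromosome set against that of all autosomal genes. EpiSC had values of 0.45, 0.42 and 0.45 for chromosome 12, against -0.03, -0.13 and -0.09 in ASC and -0.20 to 0.08 in all samples outside EpiSC. The other 18 autosomes lay between -0.15 and 0.16 in both groups. In all 12 windows of 10 Mb along chromosome 12 the median log2 fold change was below 0, ranging from -1.03 to -0.17. Of 591 tested genes there 178 (30.1%) were lower in ASC against 16.8% of all genes. *Gsc*, *Sp8*, *Etv1*, *Lamb1*, *Mthfd1*, *Mycn* and the *Dlk1*-*Meg3* cluster, described above, lie on this chromosome, where the median log2 fold change of the well-expressed genes was -0.62. Their own differences and that of the chromosome cannot be told apart, which matters most for *Mthfd1* (log2 fold change -1.01) and *Lamb1* (-1.28).

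**Figure D5:**
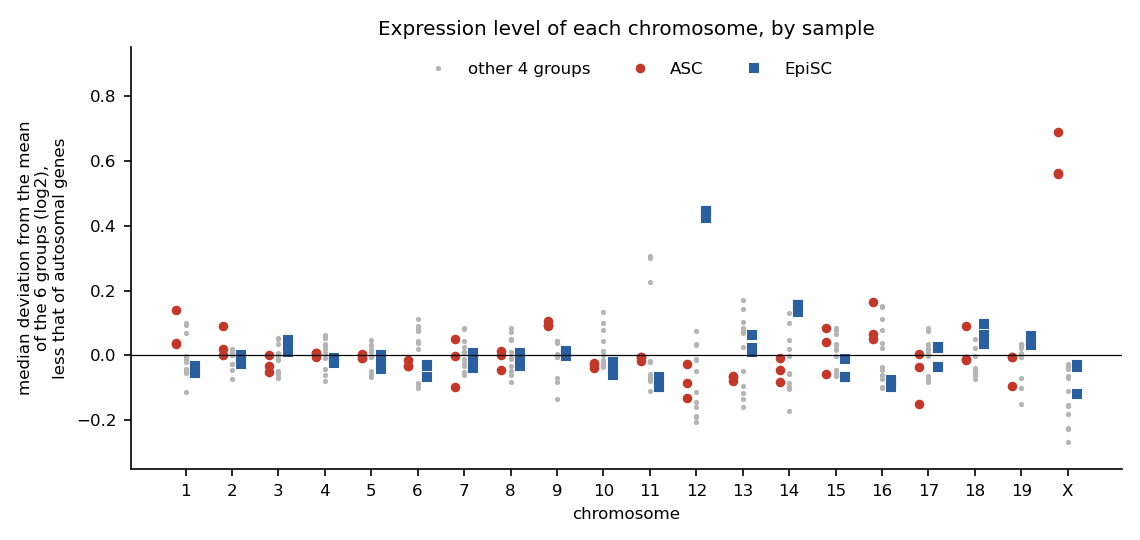
Points give, for each chromosome and sample, the median log2 deviation of well-expressed genes from the mean of the 6 groups, less that of autosomal genes (ASC red, EpiSC blue, the other groups grey). EpiSC stands at 0.42 to 0.45 for chromosome 12 and ASC at 0.56 to 0.69 for X, above the other groups.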

How the data were processed

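Per the labels and the study's methods, polyadenylated RNA was sequenced in pairs on a HiSeq4000 from stranded libraries, and the authors aligned reads with TopHat2 to GRCm38 and counted fragments per gene (Ensembl release 86) with featureCounts 1.5.0-p1. Per the file headers the deposited raw counts include fragments that map to several places or genes, and counting ignored strand, so near-identical, overlapping and antisense genes share counts. Symbols came from a reference table of gene names for 35514 of 35773 genes. The 6 samples compared held 6976376 to 9742624 counts in genes, and intervals cover counting error only.

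All 18 samples entered 1 edgeR 4.0.16 fit (quasi-likelihood, robust, TMM, group only; at least 10 counts in 3 samples; Benjamini-Hochberg adjustment), checked on simulated data: of 200 genes changed among 16276, 190 were recovered with 9 false calls in ASC against EpiSC. The simulation gave all genes the same dispersion and changed few of them. In the data 66.5% of tested genes had an adjusted p below 0.05, so it does not give the error rate here. DESeq2 1.42.0 gave the size factors of the levels and an alternative test. Named genes are the 12 largest changes each way past the study's thresholds and without overlap (protein coding, leaving out clone names and the meiotic and naive genes the study names), and up to 3 called members each way per list, with those against the majority. Other members are named for their role after their values were seen. Lists and members were chosen with earlier results of these data known. Standard errors equal the fold change over the root of F. A few members of the lists are not reported here by name.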

Additional observations from a re-analysis of the deposited data

How the results depend on the processing

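The numbers of genes higher (4321) and lower (2839) in ASC stayed within 3833 to 5172 and 2580 to 3059 over all alternatives, and those past the study's thresholds within 1814 to 2048 and 812 to 904. Leaving out each replicate gave 4038 to 4365 and 2663 to 2930, and 1814 to 1972 and 818 to 898. Blocking on the replicate number (replicate block) gave 4344, 2878, 1914 and 887, and deviations of same-numbered samples correlated at -0.02 to 0.06, so the numbers were not taken as pairs. The scaling moved the median of all genes by at most 0.02 (log2). Of 2765 alternative values for the genes picked by the naming rule, none turned direction, 10 lost an adjusted p below 0.05 (*Tal1*, *Foxa3* and *mt-Cytb*) and 6 gained one (*mt-Co2*, *mt-Atp6* and *mt-Atp8*). Members named for their role are outside this number. Among them, *Col1a2* lost an adjusted p below 0.05 without ASC 1, EpiSC 1 or EpiSC 3. *Pax6* gained one without ASC 1, and *Npm2* in the fit of the 6 samples alone. With the fold threshold included, 47 of 451 called list members lost their call in at least 1 alternative, 3 of them with a log2 fold change beyond 1.5, and 55 members gained one. Medians of lists moved by more than the spread between replicates in 39 cases. Without the count filter the medians were -0.11 (streak), -0.84 (neural), 4.51 (*Hox*), 0.70 (collagens and laminins), 0.18 (axon guidance), 6.64 (germ cells), 3.16 (oocyte), 9.34 (cleavage stage), 8.69 (PRAME) and 7.67 (*Rhox*, *Xlr* and *Mage*), where more genes are tested. With DESeq2 they were 6.67 (*Hox*), 5.23 (oocyte), 9.29 (cleavage stage), 8.50 (PRAME) and 8.726 (*Rhox*, *Xlr* and *Mage*). In the fit of the 6 samples alone they were -0.82 (endoderm), 7.64 (oocyte), 9.85 (cleavage stage), 9.063 (PRAME) and 0.34 (antigen presentation), and with filterByExpr -0.86 (endoderm) and 6.61 (oocyte). Leaving out 1 replicate gave 0.083 to 0.33 (Wnt), -1.66 to -1.29 (streak), -1.56 to -1.11 (neural), 1.35 to 1.44 (epithelial), -0.23 to 0.052 (axon guidance), 0.23 to 0.51 (Polycomb), 7.254 to 7.752 (germ cells), 9.89 to 10.63 (cleavage stage), 9.132 to 9.259 (PRAME), 9.29 to 9.74 (*Rhox*, *Xlr* and *Mage*), 0.055 to 0.28 (antigen presentation) and -1.35 to -1.14 (retinoic acid). Apart from these constructions, the cause was not tested. For genes with at most 3 counts in the lower group, leaving out the library that held them moved the fitted log2 fold change: *Bcl3* 8.62 to 9.43 and *Ap1m2* 7.37 to 8.18 (both without EpiSC 3), *Myod1* -9.22 to -12.06 and *Fabp7* -8.77 to -11.62 (without ASC 3), *Cer1* -8.72 to -10.75 (without ASC 2), *Cfc1* -6.33 to -8.37 and *Sema6d* -5.89 to -8.73 (without ASC 1), *Cox4i2* 6.72 to 8.73 (without EpiSC 1), *Rpl39l* 9.55 to 11.53 (without EpiSC 2) and *Zscan4f* 12.06 to 14.04 (without EpiSC 3). The X-linked difference was 1.28 to 2.00 under other filters and pseudocounts, and 1.37 to 1.42 without 1 replicate. The chromosome 12 values, recomputed after seeing the data with genes of log2 level above 3, were 0.41 to 0.43 in EpiSC and -0.13 to -0.04 in ASC.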

Other observations

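Genes were also grouped by the stem of their symbol, leaving out members of the lists above, which gave 411 families with at least 5 tested genes. Because list members are left out, a family here is not the whole gene family: the T-box gene *T*, which was lower in ASC, and cadherins such as *Cdh1* are described above. The T-box genes *Eomes*, *Tbx4* and *Tbx6* of the streak list are left out too. The T-box count below therefore does not give a direction of the whole family. These values were read after ranking the families by their median log2 fold change. At the top stood the X-linked ferritin-like *Fthl17* genes (5 of 5 higher, median 9.56), which share reads. Next came *Slco* transporters of organic anions (4 of 5 higher and 1 lower, median 7.06) and *Oas* antiviral genes (5 of 5 higher, median 6.35). Kallikrein proteases (*Klk*, 5 of 5, median 6.09), the gap junction genes *Gjb1* to *Gjb5* (5 of 5, median 4.73) and the remaining T-box genes (7 of 7, median 4.46: *Tbx1*, *Tbx15*, *Tbx18*, *Tbx2*, *Tbx20*, *Tbx21* and the naive gene *Tbx3*) followed. The percent of all tested genes called higher was 25.6.

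At the other end stood adhesion genes of the cadherin superfamily, with protocadherins (*Pcdh*, 5 of 6 lower, median -3.01), the remaining cadherins (*Cdh*, 5 of 8 lower, median -3.002) and the clustered *Pcdhb* genes (5 of 5 lower, median -2.82). The *Pcdha* genes (12 of 12 lower, median -2.21) share constant exons and so most of their counts. The retrotransposon-derived *Rtl* genes followed (5 of 7 lower, median -2.27). Of 58 tested replication-dependent histone genes 43 were lower and 0 higher (median -1.64). Polyadenylated libraries capture few such transcripts: histone genes took 0.0108% to 0.0168% of the counts in ASC and 0.0601% to 0.0847% in EpiSC.

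At the start of chromosome 14, 76 of the 91 tested genes that begin in the first 10 Mb were lower in ASC and 3 were higher, with a median log2 fold change of -2.82. Of these genes 81 have only a Gm number as a symbol, 73 of them lower, and the lower genes lie between positions 3030002 and 7643972 (GRCm38). Many are near-identical copies that share reads under the counting used, so they are not 76 separate observations.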
